A study of Mus with 9 samples.

Results

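The 9 genes Aif1, Tmem119, P2ry12, Csf1r, Trem2, Tyrobp, Cd68, Itgam and Ptprc are widely used to identify microglia and to read their state. They were taken by exact gene symbol from both deposited tables, in which each has 1 probe set among 22206 (a probe set is the group of short probes that reports 1 transcript cluster on the Clariom S Mouse array). The 9 RNA samples came from the hippocampus of male mice that were 16 weeks old at the start. The SAMR1 group, a related strain with a normal course of aging, and the nontreated SAMP8 group, a strain with accelerated senescence, received only the vehicle, which is saline in the sample records and water in the methods. The TG-treated SAMP8 group received trigonelline (TG), a plant alkaloid, by mouth at 5 mg/kg for 30 days, and dosing went on through 8 days of maze testing that all groups underwent. The mice were housed singly, and the records list 3 arrays per group. SAMR1 and SAMP8 are different inbred strains, so a difference between them is a difference of strain as a whole.

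The tables hold 1 average per group for each probe set, on the log2 scale, and the values printed here are these averages made by the authors. Values of single arrays were not analysed here, so no spread, no interval and no test across mice can be given, and whether a difference is larger than the variation between mice of a group is not known. A gene is called higher or lower below when 2 averages differ by more than 1.2-fold, which is a description of size and not a test. The signal of a probe set depends on its probes, so levels are compared between groups for the same gene and never between genes. In RNA from whole tissue, fewer microglia and less RNA of a gene per microglial cell cannot be told apart.

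Microglia are the resident macrophages of the brain, and they depend throughout life on signals through the receptor Csf1r. In the healthy hippocampus they carry a resting, homeostatic program that includes Tmem119 and P2ry12. On injury, in aging and around amyloid this program is reduced, while phagocytic and lysosomal genes and the receptor complex of Trem2 and Tyrobp gain in importance. Aif1, Itgam and Ptprc mark myeloid cells or leukocytes more generally, in any state.

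In SAMP8 vs SAMR1, 3 of the 9 genes were more than 1.2-fold higher (Aif1, P2ry12 and Itgam) and 1 was lower (Trem2). Over all probe sets, 20.4% were past this limit upward and 20.4% downward. With TG, 3 genes were higher than in nontreated SAMP8 (Csf1r, Trem2 and Tyrobp) and 4 were lower (Ptprc, Aif1, P2ry12 and Itgam), beside 19.6% and 18.5% of all probe sets. Between TG-treated SAMP8 and SAMR1, 4 genes were higher (Aif1, P2ry12, Csf1r and Itgam) and 2 lower (Ptprc and Trem2), beside 20.0% and 20.5% of all probe sets. The median difference of the 9 genes was 0.09 in the first comparison, -0.14 in the second and 0.05 in the third, while that of all probe sets was 0.00, 0.01 and -0.01. The 9 genes did not move as 1 block in any comparison. The comparisons share groups: the SAMP8 averages enter the first and the second with opposite sign, so a high or low SAMP8 average by itself gives opposite differences.

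**Figure D1:**
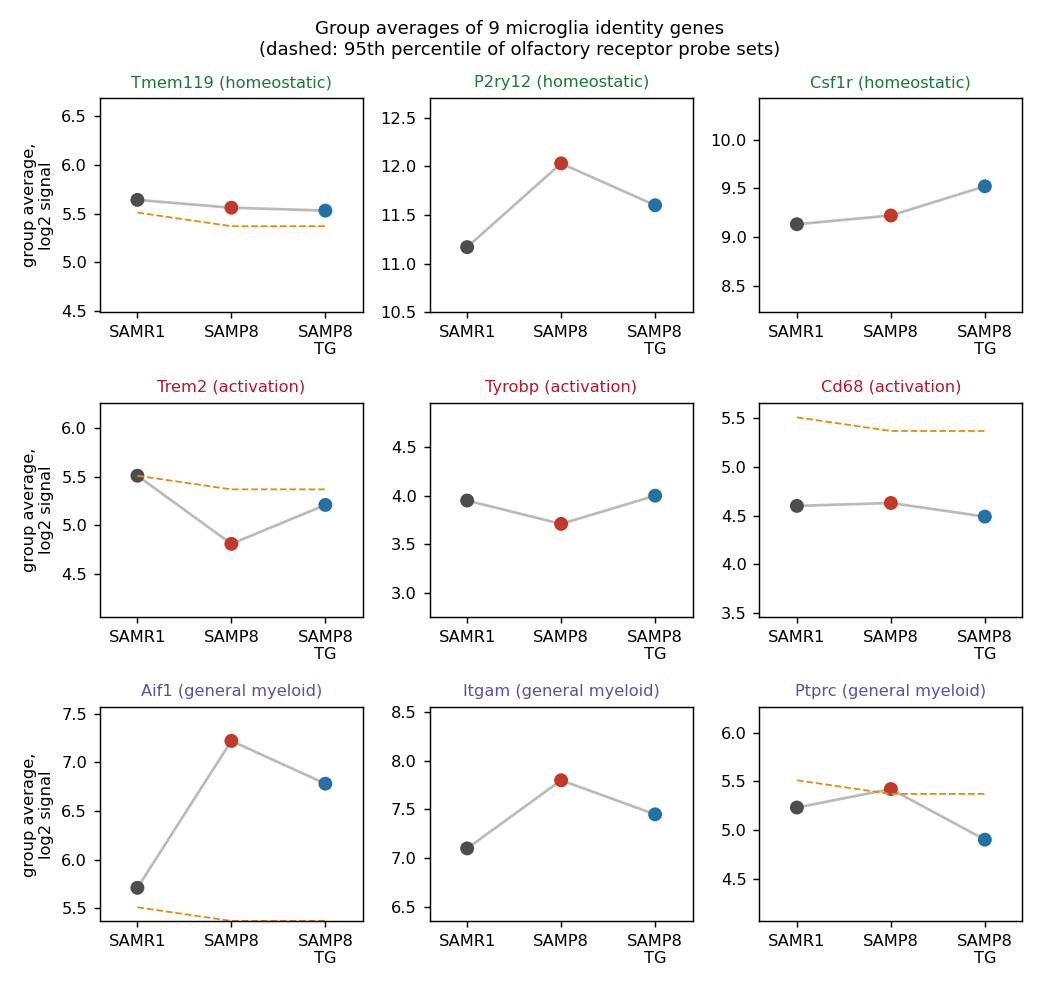
Group averages (log2 signal, vertical axis, each panel spanning the same width of 2.2 log2 units) of the 9 genes in SAMR1, SAMP8 and TG-treated SAMP8, with the 95th percentile of the olfactory receptor probe sets as a dashed line where it falls inside the panel. Aif1, P2ry12 and Itgam peak in SAMP8, Trem2 is lowest there, and Trem2, Tyrobp, Cd68 and Ptprc lie at or near the dashed line or below it.

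Before the genes are described, the strength of their signals has to be given. Olfactory receptor genes, which are silent in most of the brain, served as a reference for probe sets with little target, and 1079 probe sets carry such a symbol. Their averages had a 95th percentile of 5.51 in SAMR1, 5.37 in SAMP8 and 5.37 with TG. Trem2, Tyrobp and Cd68, which are the 3 activation genes, were at or under this level in every group, and Ptprc was under it in SAMR1 and TG-treated SAMP8. Tmem119 was above it by a small margin. P2ry12, Csf1r and Itgam exceeded at least 99.7% of the olfactory receptor probe sets in every group, and Aif1 exceeded 96.6% in SAMR1, 99.9% in SAMP8 and 99.6% with TG. The olfactory receptor probe sets themselves were not flat. In SAMP8 vs SAMR1, 9.45% of them were more than 1.2-fold higher and 29.7% lower, and with TG 25.4% were higher and 13.1% lower than in nontreated SAMP8.

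Of the homeostatic genes, P2ry12, the ADP receptor that steers microglial processes toward injured cells, varied most. It lies on chromosome 3 from 59216271 to 59262985 (mouse build GRCm38, as are all positions below). Its averages were 11.17 for SAMR1, 12.03 for SAMP8 and 11.60 for the TG-treated group. SAMP8 was thus 0.86 above SAMR1 on the log2 scale, or 1.82-fold, and 1.36% of all probe sets had a larger positive difference. The TG-treated group stood between the others, with a difference of -0.43 (1.35-fold) from nontreated SAMP8 and of 0.43 from SAMR1.

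Csf1r, the receptor tyrosine kinase for the survival factors CSF1 and IL-34, lies on chromosome 18 from 61105572 to 61131139. It averaged 9.13 in SAMR1, 9.22 in SAMP8 and 9.52 with TG. The strains were close, with a difference of 0.09. The TG-treated group had the highest average, by 0.30 (1.23-fold) over nontreated SAMP8 and by 0.39 (1.31-fold) over SAMR1. Csf1r is the only one of the 9 genes with an average above the olfactory receptor level in all groups that was higher with TG by more than 1.2-fold.

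Tmem119, a membrane protein used to tell resident microglia from other macrophages, lies on chromosome 5 from 113793729 to 113800396. Its averages of 5.64 (SAMR1), 5.56 (SAMP8) and 5.53 (TG-treated SAMP8) span only 0.11, the narrowest range of the 9 genes. The homeostatic genes therefore differed in behavior: P2ry12 was highest in SAMP8, Csf1r was highest with TG, and Tmem119 was level.

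Among the activation genes, Trem2, a receptor for lipids and lipoproteins on phagocytic microglia, differed most. It lies on chromosome 17 from 48346401 to 48352276. It averaged 5.51 in SAMR1, 4.81 in SAMP8 and 5.21 with TG. The SAMP8 average was 1.62-fold lower than that of SAMR1, a difference of -0.70, and 3.84% of all probe sets were lower still in that comparison. With TG it was 0.40 (1.32-fold) above nontreated SAMP8 and still lower than in SAMR1, with a difference of -0.30 (1.23-fold). The middle 95% of the olfactory receptor probe sets ran from -0.84 to 0.47 in the first comparison and from -0.55 to 0.76 in the second, so both differences of Trem2 lie inside the range of these weak probe sets.

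Tyrobp (DAP12), the adaptor through which Trem2 signals to the kinase Syk, lies on chromosome 7 from 30413782 to 30417582. Its averages were 3.95 in SAMR1, 3.71 in SAMP8 and 4.00 with TG. The order of the groups differs from that of Trem2, since Tyrobp was highest with TG, but SAMP8 was the lowest group for both. Its difference was -0.24 in SAMP8 vs SAMR1, short of the limit, and 0.29 (1.22-fold) with TG. Tyrobp exceeded 32.9% of the olfactory receptor probe sets in SAMP8, 40.9% in SAMR1 and 43.0% with TG, so on this array it gave no more signal than a typical member of that reference.

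Cd68, a glycoprotein of lysosomes that is abundant in phagocytes, lies on chromosome 11 from 69664213 to 69666170. It averaged 4.60 in SAMR1, 4.63 in SAMP8 and 4.49 with TG. The largest difference, -0.14 with TG, is short of 1.2-fold.

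Set side by side, the median difference of the 3 homeostatic genes was 0.09 in SAMP8 vs SAMR1 and that of the 3 activation genes was -0.24. With TG the medians were -0.03 and 0.29, and for TG-treated SAMP8 vs SAMR1 they were 0.39 and -0.11. The gap between the medians was 0.33, -0.32 and 0.50 in the 3 comparisons. These gaps rest on few genes, and on the activation side only on probe sets at or under the olfactory receptor level. When Aif1, Itgam and Ptprc were counted as activation genes, the gap was -0.02 in SAMP8 vs SAMR1 and 0.21 with TG, opposite in sign to the values above, and 0.42 in TG-treated SAMP8 vs SAMR1. When the further homeostatic and activated genes described below were pooled with these 3 and 3, it was 0.06, 0.02 and 0.06.

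**Figure D2:**
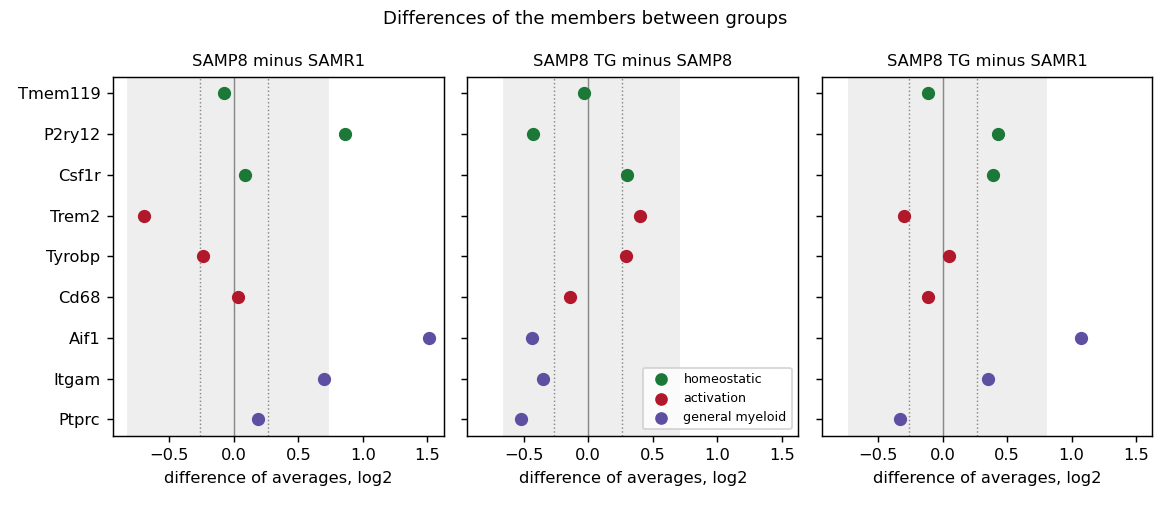
Differences of group averages (log2, horizontal axis) of the 9 genes in the 3 comparisons, with the 1.2-fold limits as dotted lines and the middle 95% of all probe sets shaded. Aif1 and P2ry12 lie outside the shaded range in SAMP8 minus SAMR1, only Aif1 in SAMP8 TG minus SAMR1, and no gene in SAMP8 TG minus SAMP8.

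The general myeloid genes included Aif1, whose strain difference exceeded that of the other 8 genes. Aif1 encodes IBA1, the calcium-binding protein of the actin cytoskeleton that is the standard stain for microglia, and it lies on chromosome 17 from 35170986 to 35176083. It averaged 5.71 in SAMR1, 7.22 in SAMP8 and 6.78 with TG. SAMP8 was 1.51 above SAMR1 (2.85-fold), and 0.239% of all probe sets had a larger positive difference. The TG-treated group differed by -0.44 (1.36-fold) from nontreated SAMP8, and it was still 1.07 (2.10-fold) above SAMR1, a difference exceeded by 0.847% of all probe sets. Both SAMP8 groups therefore stood well apart from SAMR1, and the step between the strains was larger than the step with TG.

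Itgam (CD11b), the alpha chain of complement receptor 3, lies on chromosome 7 from 128062640 to 128118491. Its averages were 7.10 in SAMR1, 7.80 in SAMP8 and 7.45 with TG. The group order was that of Aif1 and P2ry12, with a difference of 0.70 (1.62-fold) in SAMP8 vs SAMR1 and of -0.35 (1.27-fold) with TG, and an average 0.35 above SAMR1 that remained in the treated mice.

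Ptprc (CD45), the receptor phosphatase found on all nucleated blood cells and weakly on microglia, lies on chromosome 1 from 138062859 to 138175756. It averaged 5.23 in SAMR1, 5.42 in SAMP8 and 4.90 with TG. The TG-treated group had the lowest average, with differences of -0.52 (1.43-fold) from nontreated SAMP8 and -0.33 (1.26-fold) from SAMR1. The first of these was the most negative difference among the 9 genes with TG, and it lies just inside the middle 95% of the olfactory receptor probe sets.

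The surroundings of the genes on their chromosomes were examined next, since the comparison is between inbred strains. For each of the 9 genes, the nearest gene with a probe set was taken on either side, 18 genes in all. In SAMP8 vs SAMR1, 6 of these neighbors were higher and 5 were lower, beside 20.4% of all probe sets in each direction. Their median difference was -0.02. The large difference of Aif1 was not seen in Prrc2a, at a distance of 5664 bases, which differed by 0.01. Lst1, at 9011 bases on the other side, differed by 0.11. The Lst1 averages of 4.05, 4.16 and 4.23 were under the olfactory receptor level in every group, so its probe set could show little. P2ry12 and P2ry13, a receptor for the same nucleotide whose gene ends 5388 bases away, differed in opposite directions. P2ry13 averaged 7.40 in SAMR1, 6.68 in SAMP8 and 7.05 with TG, a difference of -0.72 in SAMP8 vs SAMR1. Med12l, which spans P2ry12, was level at 11.60, 11.63 and 11.65.

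Trem2 lies in a cluster of related receptors, and both of its neighbors were lower in SAMP8 as well. B430306N03Rik differed by -0.65 and Treml1, a relative of Trem2 found on platelets, by -0.35. Treml1 was 0.55 higher with TG than without. Both neighbors were under the olfactory receptor level in every group, as Trem2 was at or under it. Of the olfactory receptor probe sets, 29.7% were also lower in SAMP8 than in SAMR1, and 9.45% were higher. Hcst (DAP10), an adaptor related to Tyrobp and only 129 bases away from it, averaged 3.19, 3.00 and 3.49 in the order SAMR1, SAMP8, TG-treated SAMP8, so that SAMP8 was the lowest and TG the highest group for both adaptors, at weak signal. Beside Itgam, Itgax (CD11c) differed by 0.41 in SAMP8 vs SAMR1 and by -0.49 with TG, from weak averages of 3.71, 4.12 and 3.63.

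**Figure D3:**
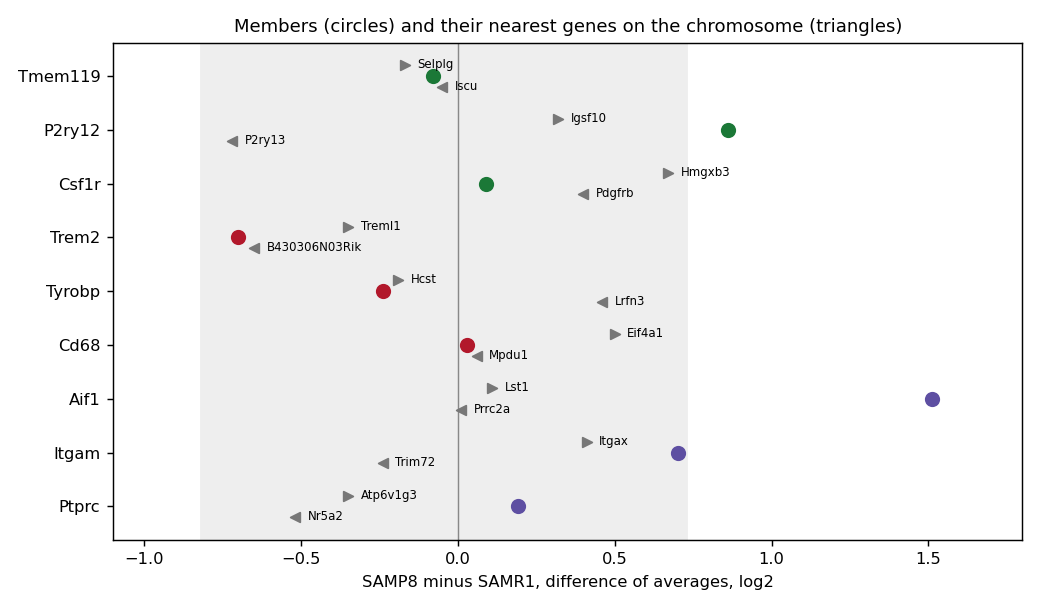
Difference of SAMP8 minus SAMR1 (log2, horizontal axis) of each of the 9 genes (circles) and of the nearest gene with a probe set at lower (left-pointing triangles) and higher coordinates (right-pointing), with the middle 95% of all probe sets shaded. Aif1 lies at 1.51 while its neighbors lie at 0.01 (Prrc2a) and 0.11 (Lst1, at weak signal), and P2ry12 and P2ry13 lie on opposite sides of 0.

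The wider homeostatic program was read from 16 further genes, of which 3 had a mean signal within the 95th percentile of the olfactory receptor probe sets. In SAMP8 vs SAMR1, 5 were higher and 4 lower than the 1.2-fold limit, and the median difference was 0.01. With TG, 2 were higher and 4 lower, with a median of 0.08. The largest difference was that of Slc2a5, the fructose transporter of microglia, which averaged 4.47 in SAMR1, 5.54 in SAMP8 and 5.21 with TG. The SAMR1 and TG averages of Slc2a5 were under the olfactory receptor level. Entpd1 (CD39), which degrades the ATP and ADP that P2ry12 senses, was 0.72 higher in SAMP8 than in SAMR1, and Olfml3, a secreted protein of resting microglia, was 0.63 higher. Fcrls, a receptor found on resident microglia, had a difference of -0.64. Cx3cr1, the receptor for the neuronal chemokine Cx3cl1, averaged 7.25 in SAMR1, 6.94 in SAMP8 and 6.63 with TG, so that the treated group differed from SAMR1 by -0.62.

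Activated microglia were read from 24 further genes, of which 13 had a mean signal within the 95th percentile of the olfactory receptor probe sets. In SAMP8 vs SAMR1, 5 were higher and 4 lower, with a median difference of 0.05. With TG, 4 were higher and 4 lower, with the same median of 0.05. Gpnmb, a glycoprotein of lipid-laden phagocytes, was 0.67 higher in SAMP8 and 0.74 higher in TG-treated SAMP8 than in SAMR1. Its averages of 4.17, 4.84 and 4.91 were all under the olfactory receptor level. Cd9, a tetraspanin that other glia also make, differed by -0.64 in SAMP8 vs SAMR1 and by 0.88 with TG, from averages of 9.43, 8.79 and 9.67. Past the limit upward were 31.2% of the homeostatic list and 20.8% of the activated list in SAMP8 vs SAMR1, beside the 20.4% of all probe sets, and each list also held nearly as many genes past it downward.

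The ligands and partners of the 9 genes formed a list of 23 genes. In SAMP8 vs SAMR1, 3 of them were higher and 4 lower, and with TG 3 were higher and 5 lower, with medians of 0.02 and -0.06. The ligands of Csf1r differed little: Csf1 averaged 10.01, 10.16 and 9.95 and Il34 averaged 7.64, 7.88 and 7.89 in SAMR1, SAMP8 and TG-treated SAMP8. Among factors of the myeloid lineage, Spi1 (PU.1) averaged 8.65, 8.82 and 8.75 and Irf8 averaged 5.05, 5.22 and 5.04, neither past the limit. Runx1, which acts earlier in that lineage, averaged 5.41, 5.28 and 5.75 and was 1.39-fold higher with TG. Cx3cl1 differed by 0.43 in SAMP8 vs SAMR1 and by -0.41 with TG.

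Among the partners, the genes past 1.5-fold were 2 inhibitory receptors and the ligand of 1 of them. Fcgr2b, the inhibitory receptor for immunoglobulin G, averaged 5.42 in SAMR1, 4.49 in SAMP8 and 4.58 with TG, differences of -0.93 and -0.84 from SAMR1. Fcgr2b and Cd200r1 were under the 95th percentile of the olfactory receptor probe sets in every group, as were 10 of the 23 partners by their mean signal. Cd200r1, which restrains myeloid cells on contact with the neuronal protein Cd200, differed by -0.73 in SAMP8 vs SAMR1. Cd200 itself averaged 7.26, 7.78 and 6.86, and its difference of -0.92 with TG was the most negative of this list. Syk, the kinase that Tyrobp recruits, averaged 6.18, 5.91 and 6.32, with SAMP8 the lowest group as for Tyrobp.

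**Figure D4:**
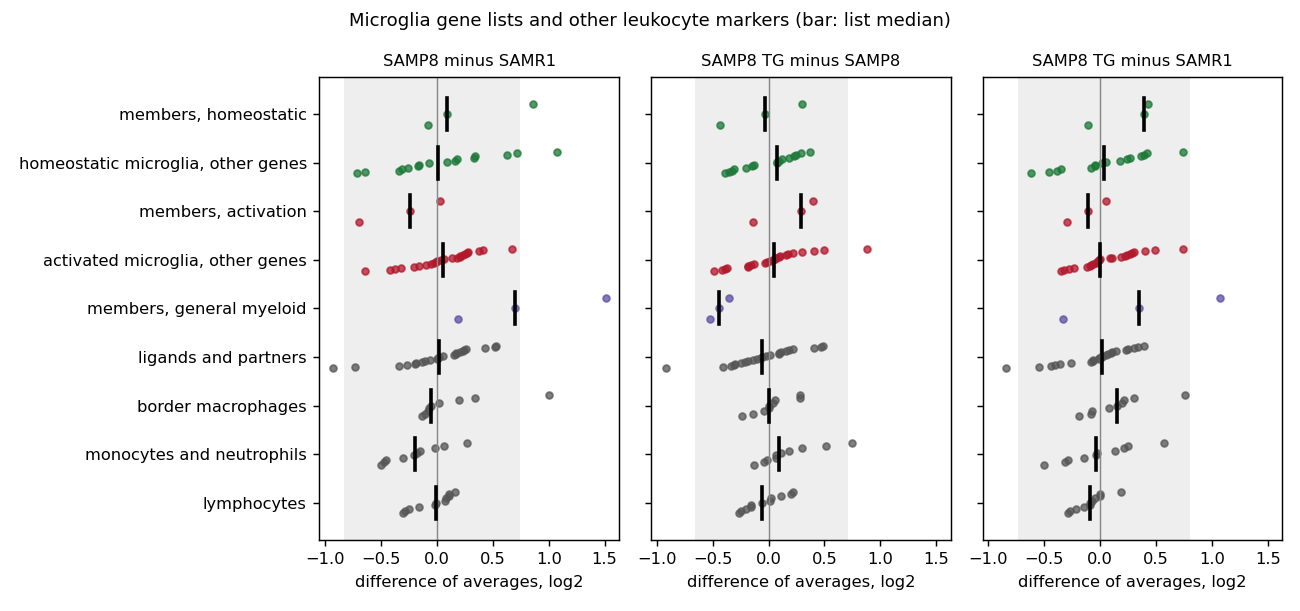
Differences of group averages (log2, horizontal axis) for the 9 genes by role, the wider microglia lists, the partners and markers of other leukocytes in the 3 comparisons, with 1 point per probe set, a bar at each list's median and the middle 95% of all probe sets shaded. The medians of the wider microglia lists and of the partners lie between -0.06 and 0.08, while single genes of each list spread to either side.

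Because the 9 genes are shared to different degrees with other myeloid cells and lymphocytes, the markers of those cells were read beside them. The macrophages of the brain's borders were represented by 9 genes. Of these, 2 (22.2%) were higher and 0 lower in SAMP8 than in SAMR1, with a median difference of -0.05. The higher ones were Mrc1 (CD206), the mannose receptor of these cells, from 5.51 to 6.51, and Lyve1, at weak signal, from 4.23 to 4.57. With TG, Mrc1 averaged 6.27, which is 0.76 above SAMR1. The list's mean was 4.85 in SAMR1, 4.98 in SAMP8 and 5.00 with TG. Of 10 monocyte and neutrophil genes, 1 was higher and 4 were lower in SAMP8, and the list's mean was 4.18, 3.98 and 4.17. Elane, a protease of neutrophils, averaged 4.22, 3.72 and 4.47 and had the largest difference of this list with TG, 0.75. Of 11 lymphocyte genes, 0 were higher and 2 (18.2%) lower in SAMP8, 0 were past the limit with TG, and the mean was 4.08, 4.03 and 3.98. In the border macrophage, monocyte and neutrophil, and lymphocyte lists, 6, 9 and 10 probe sets had a mean signal within the olfactory receptor level. In SAMP8 vs SAMR1, 20.4% of all probe sets were past the limit in each direction. Of the olfactory receptor probe sets, 9.45% were past it upward and 29.7% downward. With TG, 19.6% of all probe sets were higher and 18.5% lower. The part of these cells in the differences of Aif1, Itgam and Ptprc was not tested.

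The tissue was checked by markers of other cells. For each list and comparison, the gene with the largest difference is given where it passed 1.5-fold. Neuronal genes were strong in all groups, with a mean of 13.90 in SAMR1, 14.02 in SAMP8 and 13.82 with TG over 10 genes. Among them Map2 differed most between the strains, by -0.66, Prox1 with TG, by -0.85, and Gad2 between TG-treated SAMP8 and SAMR1, by -0.64. Astrocyte genes averaged 12.28, 12.58 and 12.64 over 8 genes. Gfap, the filament of reactive astrocytes, was 0.95 higher in SAMP8 than in SAMR1, and Aldoc was 0.98 higher in TG-treated SAMP8 than in SAMR1. Oligodendrocyte genes averaged 11.17, 11.08 and 11.41 over 7 genes, with Mobp at -0.80 in SAMP8 vs SAMR1 and Cldn11 at 0.71 with TG. Cldn11 was also 1.07 higher in TG-treated SAMP8 than in SAMR1. Endothelial genes averaged 7.43, 7.80 and 7.40 over 6 genes, with a TG-treated mean close to that of SAMR1. Their mean was highest in SAMP8, as were the averages of Aif1, Itgam and P2ry12. The means of the neuronal list and of the meningeal, thalamic and choroid plexus lists below were also highest in SAMP8. Of the endothelial genes, 3 were higher and 0 lower in SAMP8 than in SAMR1, with a median of 0.39, beside 20.4% of all probe sets each way. With TG, 0 were higher and 3 lower, with a median of -0.28, beside 19.6% and 18.5% of all probe sets. Tek, at weak signal, was level between the strains, at 5.41 in SAMR1 and 5.40 in SAMP8. Flt1 was 0.66 higher in SAMP8 than in SAMR1, and Slco1a4 averaged 11.62 without TG and 10.62 with it. The part of these cells in the differences of the microglial genes was not tested. The 2 red blood cell genes found averaged 6.77, 5.96 and 6.21. Alas2 differed by -1.06 in SAMP8 vs SAMR1 and by -0.62 in TG-treated SAMP8 vs SAMR1.

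Markers of tissue next to the hippocampus did not all move one way with TG. Over all probe sets, 19.6% were past the limit upward and 18.5% downward with TG. Between the strains it was 20.4% in each direction. The 8 meningeal genes had means of 7.84, 8.01 and 7.36, and with TG 1 was higher and 4 were lower, with a median of -0.29. Ptgds (-2.69) and Igf2 (-1.89) had the largest differences there, while Lum was 0.46 higher. In TG-treated SAMP8 vs SAMR1, Ptgds differed by -1.82. Between the strains, 3 meningeal genes were higher in SAMP8 and 3 were lower, with a median of -0.01, and the difference of Igf2 was 1.58. The 6 thalamic genes, read by 8 probe sets, had means of 8.16, 8.48 and 8.13, and with TG 1 probe set was higher and 2 were lower, with a median of -0.07. Zic1 differed by -1.91 with TG and Tnnt1 by 0.66, and in TG-treated SAMP8 vs SAMR1 Zic1 differed by -1.35. Between the strains, 6 of these probe sets were higher in SAMP8 and 1 (Tnnt1, -0.78) was lower. Choroid plexus genes averaged 5.80, 6.10 and 6.06 over 6 genes, with Ttr 0.88 higher in SAMP8 than in SAMR1 and Kl at -0.79 with TG. Between the strains, 4 of them (66.7%) were higher in SAMP8 and 1 was lower, with a median of 0.46. With TG, 2 were higher and 2 lower. Ttr was 1.60 higher in TG-treated SAMP8 than in SAMR1. Whether an unequal share of such tissue moves the microglial averages was not tested.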

How the data were processed

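Per the labels, 9 hippocampal RNA samples, 3 per group, were hybridized to Clariom S Mouse arrays. The authors summarized and normalized the arrays by SST-RMA in the Transcriptome Analysis Console, and the deposited tables, 1 for each of 2 comparisons, hold the authors' group averages as log2 signal with annotation on mm10. The columns of the authors' own comparisons (fold changes, p-values and adjusted p-values) were not used. The SAMP8 averages were equal in both tables for all 22206 probe sets, so the 3 groups were compared on 1 scale.

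Differences of averages were computed for the 9 genes and for lists of other genes, with a fold limit of 1.2 in place of a test; the limit of 1.1 in the study's methods goes with a p-value. Genes of the microglia and partner lists were named when past 1.5-fold in any comparison (at most 6 per list and comparison), along with Csf1, Il34, Cx3cl1, Cx3cr1, Spi1 and Irf8, and of the other lists the gene with the largest difference per comparison where past 1.5-fold; Lyve1, Syk, Runx1, Lum and the neighboring genes were named after their values were seen, and the olfactory receptor reference was also chosen then. The members and lists were chosen with earlier results of these data known. Positions are those of RefSeq on GRCm38, where all 9 genes were found. The calling step was checked on simulated data. The number of arrays limits precision. The design text speaks of duplicate RNA samples, while the records list 3 per group, and each record carries a description of a macrophage cell line that was not used. Python 3.11.15, numpy 2.4.6, pandas 2.3.3 and matplotlib 3.10.9 were used. Sequences were not used here.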

Additional observations from a re-analysis of the deposited data

How the results depend on the processing

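The 9 genes kept their differences within 0.1 in all 3 comparisons when each comparison was centred on its median over all probe sets, and matching symbols among several changed no count. With a fold limit of 1.1, 4 genes were higher and 2 lower in SAMP8 than in SAMR1, in place of 3 and 1. With TG, 5 genes were lower at this limit in place of 4, and the other counts of the 9 genes were unchanged. With a limit of 1.5, 0 genes were higher and 0 lower with TG, and 1 (Aif1) was higher and 0 lower in TG-treated SAMP8 than in SAMR1. Among probe sets brighter than the 95th percentile of the olfactory receptors, an alternative added after the data were seen that kept 5 of the 9 genes, 0 were lower in SAMP8 than in SAMR1, 1 (Csf1r) was higher with TG, and 0 were lower in TG-treated SAMP8 than in SAMR1. Of the 63 other microglia genes and partners, 25, 22 and 26 were past 1.2-fold in the 3 comparisons. In SAMP8 vs SAMR1, 20.6% were higher and 19.0% lower, beside 20.4% and 20.4% of all probe sets. With TG, 14.3% were higher and 20.6% lower, beside 19.6% and 18.5%. In TG-treated SAMP8 vs SAMR1, 22.2% were higher and 19.0% lower, beside 20.0% and 20.5%. These shares are near those of all probe sets. At a limit of 1.1 the 3 counts of the other genes and partners were 46, 40 and 36, and at 1.5 they were 9, 2 and 4. The shares of all probe sets past 1.1 and 1.5 were not computed, so counts at these limits have no background beside them.

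The gap between the homeostatic and the activation median was 0.33 in SAMP8 vs SAMR1, -0.32 with TG and 0.50 in TG-treated SAMP8 vs SAMR1. It turned to -0.02 and 0.21 in the first 2 when the general myeloid genes were counted as activation genes, and was 0.42 in the third. With the wider lists pooled with the members it was 0.06, 0.02 (reversed) and 0.06. With means in place of medians it was 0.59 in the first comparison and 0.36 in the third. Leaving out each of the 6 genes in turn gave 0.20 to 0.71, -0.52 to -0.10 and 0.25 to 0.59, so single genes decide its size. No paired analysis was possible because the tables hold 1 average per group, and for the same reason no array could be left out. Weak signal limits Trem2, Tyrobp, Cd68 and Ptprc most.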
